A study of Mus musculus with 6 samples.

Results

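Pdxdc1, Rcbtb2, Tspan18, Aktip, Anp32a, Arhgap26, 4930573C08Rik and Plppr1 are 8 mouse genes whose probe sets disagreed with one another when testes of DREAM transgenic mice were compared with wild-type testes. A probe set is a group of short oligonucleotides on an Affymetrix array that is summarised to 1 intensity, and a gene can be measured by several of them. The genes were selected by their change between the genotypes: each had at least 1 probe set past an adjusted p of 0.05, and at least 1 other that did not move with it. All probe sets annotated to one of these genes alone were then taken, by current or older symbol, which gave 28 of the 45037 probe sets tested, and 8 of the 18193 genes with a probe set of their own. Because the same contrast picked the genes, the changes, intervals and adjusted p-values given for them are descriptions and support nothing by themselves.

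The series holds 6 arrays of total RNA from freshly dissected testis of adult mice, 3 from mice carrying a constitutively active mutant of DREAM and 3 from wild-type mice, and both groups share a hybrid C57BL/6 by CBA background. DREAM, also known as KChIP3 or calsenilin, is a calcium-binding protein that sits on a DNA element with the core GTCA and represses transcription until calcium releases it. The promoter that drives the transgene, the number of founder lines, the mice behind each array and their age beyond adult are not given in the sources used here. Values are log2 intensities, so a difference of 1 is a doubling, and every SD is over the 3 arrays of a group. The labels call the arrays independent biological replicates.

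Across the series, medians per array lay between 5.99 and 6.08. On the first principal component (38.9% of the variance) wild type replicate 2 lay at 42.2 and the other arrays between -23.3 and 5.27. That array stands apart, and without it the 9 called probe sets of these genes all stayed called. The tissue markers were those of testis. The spermatid gene Prm1, a protamine, read between 14.07 and 14.12 on all arrays, the spermatocyte gene Ldhc between 13.55 and 13.62, the Sertoli cell gene Clu between 12.55 and 12.62 and the Leydig cell gene Cyp17a1 between 11.46 and 11.78. Summed linear intensities of the markers of spermatogonia, spermatocytes, spermatids, Sertoli cells, Leydig cells, epididymis, blood and liver overlapped between the genotypes. Those of 2 macrophage markers were 342 to 360 in transgenic and 278 to 335 in wild type, those of 2 endothelial markers 99.4 to 110 in transgenic and 84.4 to 97.0 in wild type, and those of 2 peritubular myoid markers 1181 to 1351 in transgenic and 1361 to 1435 in wild type, without overlap. Taken singly, Acta2 and Myh11 of the myoid list overlapped, as did Adgre1 among the macrophage and Pecam1 among the endothelial markers. Csf1r and Cdh5 did not overlap. Of all tested probe sets, 11.3% had no overlap between the groups. Single markers without overlap were also found in lists whose sums overlapped. Among 4 spermatogonial markers this was Zbtb16, at 6.46 to 6.48 in transgenic and 6.19 to 6.38 in wild type, and among 4 epididymal markers Rnase10, at 4.20 to 4.31 in transgenic and 4.72 to 5.07 in wild type (limma adjusted p = 0.0647). No marker passed, and the part of these cells in the results below was not tested. A whole testis mixes germ and somatic cells, so fewer cells of a type and less RNA per cell cannot be told apart. Kcnip3, the gene of DREAM, read 7.15, 7.30 and 7.36 in transgenic testes and 7.33, 7.11 and 7.18 in wild-type testes with its brighter probe set, and these ranges overlap. No source used here says whether those probes bind RNA of the transgene, so this gene does not check the genotype labels.

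Probe sets on this type of array were designed mostly toward the 3' end of transcript models, and a gene with alternative ends, retained introns or several clone-derived models can have 1 for each. The ending of a name carries a design note. A plain _at marks probes meant for 1 transcript, _a_at probes shared by transcripts of 1 gene, _s_at probes shared by several transcripts and _x_at probes that may bind unrelated ones. Of the 28 probe sets, 21 were of the plain kind, 5 were _a_at, and 1 each was _s_at and _x_at. Probe affinity differs between probe sets, so a level compared between them is an intensity and not an amount of transcript. Neither the positions nor the sequences of the probes are in the sources used here. Whether the probe sets of a gene read different transcript ends, or whether a sequence variant of the hybrid background lies under a probe, was therefore not tested.

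In the whole table, 200 probe sets passed an adjusted p of 0.05 (limma, Benjamini-Hochberg), which is 0.444% of those tested. Of the 28 probe sets of these genes 9 passed, a count that the choice of the genes fixed. The 4 higher ones (0.171% of all tested were higher) belonged to Pdxdc1, Tspan18, Arhgap26 and Plppr1. The 5 lower ones (0.273% of all tested) belonged to Pdxdc1, Rcbtb2, Aktip, Anp32a and 4930573C08Rik. The 9 changes ranged in size from 0.59 to 3.98, with a median of 1.07. The other 19 ranged from -0.68 to 0.44. Their median size was 0.08, beside 0.08 for all tested probe sets. The choice asked for probe sets that did not move, so this likeness is a description too. In 16 of the 28 the transgenic and wild-type arrays did not overlap, where 11.3% of all tested probe sets had such a gap. These 16 include all 9 that passed, which the choice of the genes fixed, so the share is a description. The other 7 were among the 19 that did not pass, of which 12 overlapped. They belong to genes chosen by the same contrast, so whether they exceed the share of all probe sets was not tested. Just inside the threshold lay the called probe set of Anp32a (adjusted p = 0.0347), and just outside it the dimmest of Rcbtb2 (adjusted p = 0.0733).

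**Figure D1:**
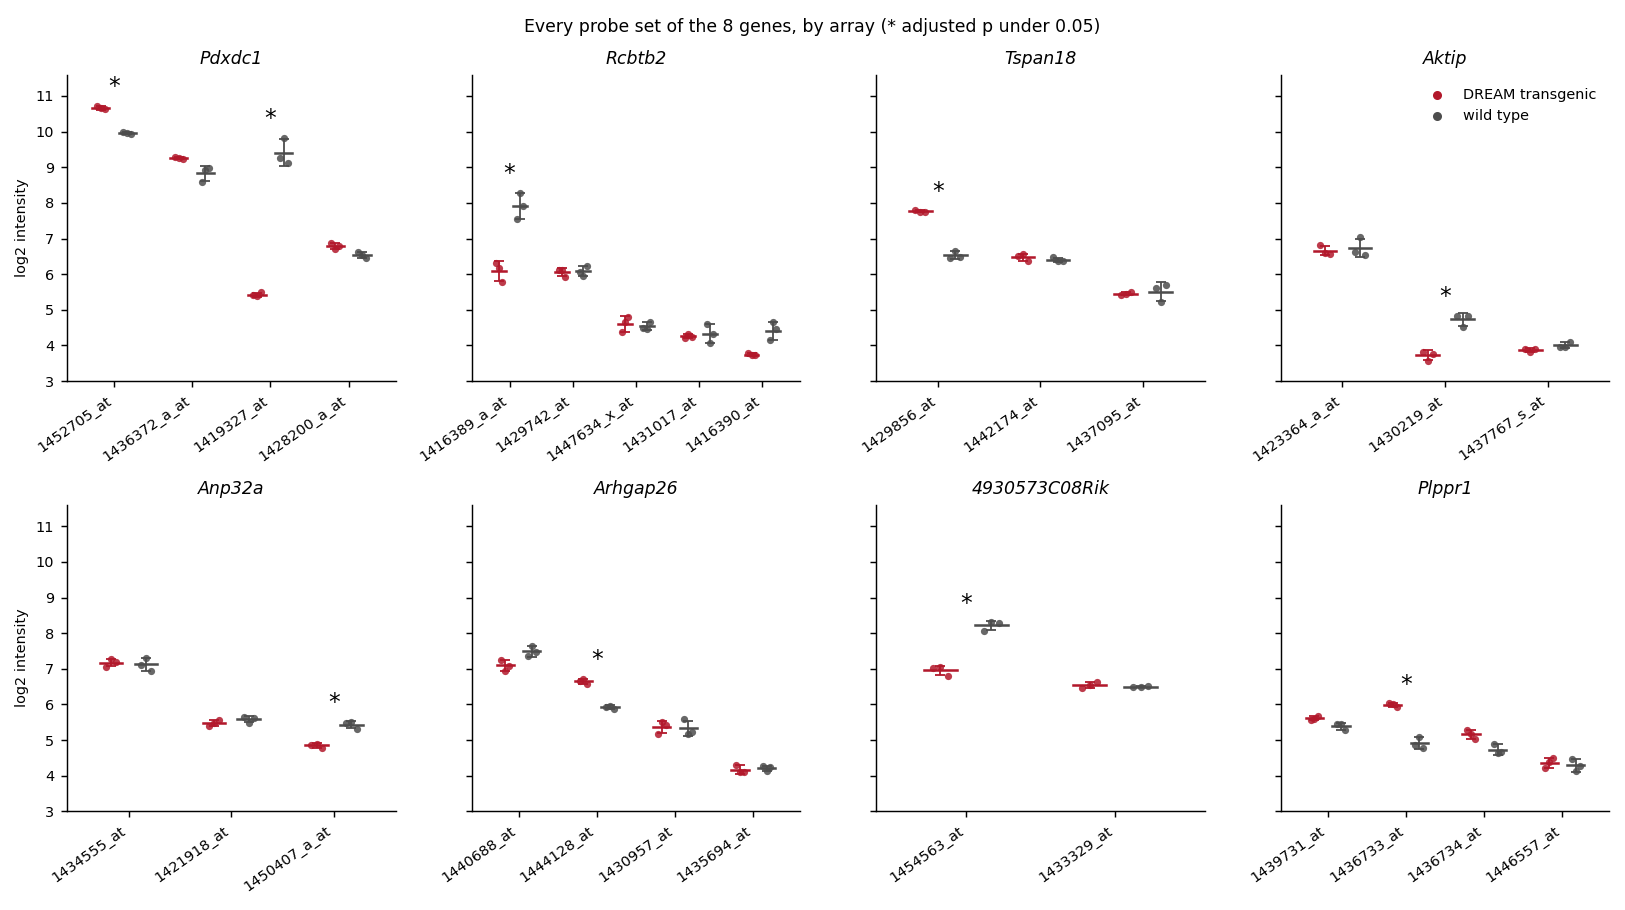
Log2 intensity (vertical axis) of each of the 28 probe sets, 1 panel per gene, with the 3 DREAM transgenic arrays in red left of the 3 wild-type arrays in grey; bars are the mean and whiskers the SD. An asterisk marks the 9 probe sets past an adjusted p of 0.05, and the probe sets of a gene run from brightest to dimmest over all 6 arrays.

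Pdxdc1, on chromosome 16, belongs by sequence to the pyridoxal-dependent decarboxylases, enzymes that work with a vitamin B6 cofactor. It was the only gene of the table with called probe sets in both directions. Probe set 1419327_at read 5.41, 5.38 and 5.49 in transgenic testes, against 9.26, 9.83 and 9.13 in wild-type testes. The groups were 3.64 apart at their nearest arrays. Every transgenic array was below every wild-type array (log2 change -3.98, SE 0.17, limma adjusted p = 2.01e-05). The transgenic mean lay at the 37.3rd percentile of all probe sets on those arrays, and the wild-type mean at the 91.4th, and with no detection call the low reading is not shown to lie above background, so no fold in RNA is given.

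The brightest probe set of Pdxdc1, 1452705_at, moved the other way. It read 10.73, 10.65 and 10.63 in transgenic testes, against 9.98, 9.95 and 9.92 in wild-type testes, a 1.65-fold higher intensity (log2 change 0.72, SE 0.08, limma adjusted p = 0.00774). Every transgenic array was above every wild-type array here, and the SDs were small (0.05 in transgenic and 0.03 in wild type). Probe set 1436372_a_at, second in brightness, read 9.30, 9.26 and 9.24 in transgenic testes and 8.59, 8.91 and 8.98 in wild-type testes. Probe set 1428200_a_at read 6.88, 6.70 and 6.78 in transgenic testes and 6.62, 6.54 and 6.46 in wild-type testes. The groups did not overlap with either of them, and neither passed (log2 changes 0.44 and 0.25, limma adjusted p = 0.258 and 0.631). So 3 of the 4 probe sets of the gene were higher in transgenic testis on every array, by different amounts, and the remaining one was lower by far more. The call of 1452705_at did not hold without transgenic replicate 1, 2 or 3 or wild type replicate 3 (limma adjusted p = 0.0685, 0.0606, 0.0528 and 0.0664), while its log2 change stayed between 0.69 and 0.74 whichever array was left out. The call of 1419327_at held each time, at -4.12 to -3.77.

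RefSeq gives Pdxdc1 a single promoter window in the table used here, shown because the gene carries the largest change and calls in both directions. It spans 250 bases before to 50 after the annotated start, on the minus strand at chr16:13903096-13903395 (GRCm38.p6). Capitals mark the core of the DREAM element, GTCA, or its reverse complement TGAC.
Pdxdc1 promoter: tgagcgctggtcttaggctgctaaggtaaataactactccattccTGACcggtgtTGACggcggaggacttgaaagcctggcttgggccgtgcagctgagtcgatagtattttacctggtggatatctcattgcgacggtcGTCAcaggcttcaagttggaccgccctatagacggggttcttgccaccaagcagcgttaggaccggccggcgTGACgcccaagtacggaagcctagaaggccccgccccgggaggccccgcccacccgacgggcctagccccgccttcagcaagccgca
The window holds 4 matches, 1 as GTCA and 3 as TGAC. Among the 32851 windows of this length in the table, 85.2% hold at least 1 match and 17.3% at least 4, with a median of 2. The letters TGAC are also part of CRE and AP-1 elements, and a match of 4 letters is a description of the sequence, not a binding site.

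Rcbtb2, on chromosome 14, encodes a protein with RCC1-type repeats and a BTB domain. Its brightest probe set, 1416389_a_at, read 6.31, 6.18 and 5.78 in transgenic testes, against 7.54, 8.29 and 7.91 in wild-type testes. The lowest wild-type array was 1.23 above the highest transgenic one, and the intensity was 3.54-fold lower in transgenic testis (log2 change -1.82, SE 0.20, limma adjusted p = 0.00451). Its dimmest probe set, 1416390_at, read 3.78, 3.72 and 3.73 in transgenic testes and 4.15, 4.65 and 4.46 in wild-type testes. These groups did not overlap either, with a log2 change of -0.68 (SE 0.13, limma adjusted p = 0.0733). The annotation ties both of these probe sets to 1 source sequence, and the 3 others to different ones or to none. The 3 others had overlapping groups. Probe set 1429742_at read 6.13, 6.11 and 5.93 in transgenic testes and 6.07, 5.95 and 6.24 in wild-type testes. The remaining pair, 1447634_x_at and 1431017_at, changed by 0.06 and -0.08. So the lower readings of Rcbtb2 were those of 1 source sequence, and even there the sizes differed. The dim probe set passed when wild type replicate 1 or 2 was left out (limma adjusted p = 0.0168 and 0.0499).

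Rcbtb2 has 2 annotated start sites in the RefSeq table, 275 bases apart on the plus strand of chromosome 14 (GRCm38.p6), with promoter windows at chr14:73142260-73142559 and chr14:73142535-73142834, which overlap at their edges. Both are shown because the gene's probe sets split by source sequence, and capitals again mark GTCA or TGAC.
Rcbtb2 first start: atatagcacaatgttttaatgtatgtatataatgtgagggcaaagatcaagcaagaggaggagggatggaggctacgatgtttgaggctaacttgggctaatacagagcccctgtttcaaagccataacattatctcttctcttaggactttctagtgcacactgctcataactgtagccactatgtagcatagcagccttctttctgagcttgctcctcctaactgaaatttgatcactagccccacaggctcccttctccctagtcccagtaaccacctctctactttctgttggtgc
Rcbtb2 second start: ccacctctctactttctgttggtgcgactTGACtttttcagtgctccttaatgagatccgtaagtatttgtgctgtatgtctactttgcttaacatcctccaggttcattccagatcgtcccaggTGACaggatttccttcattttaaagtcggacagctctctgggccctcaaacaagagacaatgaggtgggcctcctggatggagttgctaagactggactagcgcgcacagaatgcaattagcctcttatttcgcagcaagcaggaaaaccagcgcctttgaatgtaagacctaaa
The first window holds 0 matches and the second 2, both as TGAC. Which start the transcripts of either probe set use was not measured. More than 1 window is listed for 15.4% of the 27025 genes in the table.

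Tspan18, on chromosome 2, encodes a tetraspanin, one of a family of membrane proteins that organise other membrane proteins into clusters. Probe set 1429856_at, its brightest, read 7.79, 7.74 and 7.75 in transgenic testes, against 6.46, 6.66 and 6.48 in wild-type testes. The groups were 1.08 apart, and the intensity was 2.34-fold higher in transgenic testis (log2 change 1.23, SE 0.09, limma adjusted p = 0.000493). The other 2 probe sets overlapped between genotypes. With 1442174_at the values were 6.50, 6.56 and 6.37 in transgenic testes and 6.47, 6.37 and 6.36 in wild-type testes, and with 1437095_at they were 5.42, 5.43 and 5.51 in transgenic testes and 5.60, 5.21 and 5.71 in wild-type testes. Their log2 changes were 0.08 (95% interval -0.13 to 0.28) and -0.05 (-0.35 to 0.24), intervals that do not reach the change of the first. The annotation ties none of the 3 probe sets to a source sequence shared with another of them.

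Aktip, on chromosome 8, encodes a protein related to ubiquitin-conjugating enzymes that joins Hook proteins in a complex linking cargo to the motor dynein. Its called probe set is a dim one. Probe set 1430219_at read 3.83, 3.57 and 3.77 in transgenic testes, against 4.83, 4.52 and 4.84 in wild-type testes, which placed the transgenic mean at the 5.60th and the wild-type mean at the 24.1st percentile of brightness. The groups were 0.69 apart, with a log2 change of -1.01 (SE 0.12, limma adjusted p = 0.00802). The brightest probe set of the gene, 1423364_a_at, read 6.82, 6.60 and 6.57 in transgenic testes and 6.61, 7.03 and 6.55 in wild-type testes, with overlapping groups and a log2 change of -0.07 (95% interval -0.38 to 0.25). The dimmest, 1437767_s_at, read 3.91, 3.81 and 3.91 in transgenic testes and 3.97, 3.95 and 4.10 in wild-type testes. That is a gap of 0.04 between the groups and a log2 change of -0.13 (limma adjusted p = 0.905). The call ended without transgenic replicate 2 or 3 or wild type replicate 3 (limma adjusted p = 0.07, 0.0609 and 0.0578). The RefSeq table lists 3 start sites for Aktip, the others lying 1467 and 1755 bases downstream of the first on the minus strand. Their windows hold 7, 2 and 1 matches to GTCA or TGAC. No sequence is at hand for the single windows of Anp32a and Plppr1, so no count is given for them.

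Anp32a, on chromosome 9, encodes an acidic leucine-rich nuclear phosphoprotein known as an inhibitor of the phosphatase PP2A and a regulator of histone acetylation. Its called probe set, 1450407_a_at, is the dimmest of 3 and had the smallest change among the 9 called. It read 4.87, 4.90 and 4.78 in transgenic testes, against 5.48, 5.51 and 5.32 in wild-type testes, a gap of 0.42 and a log2 change of -0.59 (SE 0.09, limma adjusted p = 0.0347). Probe set 1421918_at comes from the same source sequence. It read 5.40, 5.49 and 5.56 in transgenic testes and 5.66, 5.49 and 5.61 in wild-type testes, with overlap and a log2 change of -0.10 (95% interval -0.31 to 0.11). The brightest probe set, 1434555_at, read 7.06, 7.28 and 7.19 in transgenic testes and 7.11, 7.31 and 6.95 in wild-type testes, a log2 change of 0.05. Without transgenic replicate 1, 2 or 3 or wild type replicate 1 or 3 the call of Anp32a ended (limma adjusted p = 0.175, 0.161, 0.198, 0.101 and 0.0993), and it held without wild type replicate 2 (0.0344). It was also lost with the replicate number as a block (limma adjusted p = 0.112), although the sources name no such block.

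Arhgap26, on chromosome 18, encodes GRAF1, a GTPase-activating protein with a membrane-bending BAR domain. Its 2 brightest probe sets differed between the genotypes in opposite directions. Probe set 1444128_at read 6.66, 6.72 and 6.57 in transgenic testes, against 5.94, 5.97 and 5.87 in wild-type testes, a gap of 0.60 and a 1.65-fold higher intensity (log2 change 0.72, SE 0.09, limma adjusted p = 0.00967). The brightest, 1440688_at, read 7.26, 6.94 and 7.08 in transgenic testes and 7.35, 7.64 and 7.47 in wild-type testes. Every transgenic array was below every wild-type array there, by as little as 0.09, and the change did not pass (log2 change -0.39, SE 0.12, limma adjusted p = 0.377). The dimmer 1430957_at and 1435694_at overlapped between genotypes, with log2 changes of 0.05 and -0.04. The call of 1444128_at ended without transgenic replicate 1 or 2 or wild type replicate 3 (limma adjusted p = 0.0776, 0.0843 and 0.0786).

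4930573C08Rik, on chromosome 15, is listed by RefSeq as a transcript with no protein, of the biotype misc_RNA. Both of its probe sets carry 1 source sequence. Probe set 1454563_at read 7.02, 7.04 and 6.80 in transgenic testes, against 8.06, 8.31 and 8.28 in wild-type testes, a gap of 1.02 and a 2.40-fold lower intensity (log2 change -1.26, SE 0.11, limma adjusted p = 0.00115). Probe set 1433329_at read 6.45, 6.54 and 6.62 in transgenic testes and 6.50, 6.50 and 6.51 in wild-type testes. The wild-type values lay within the transgenic range, and the log2 change was 0.03 (95% interval -0.16 to 0.23).

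Plppr1, on chromosome 4, encodes a membrane protein of the lipid phosphatase-related family, best known from neurons. All 4 of its log2 changes were above 0, with different sizes, and for the smallest no direction is shown. Probe set 1436733_at read 6.03, 6.00 and 5.92 in transgenic testes, against 4.85, 5.10 and 4.79 in wild-type testes, a gap of 0.82 and a 2.10-fold higher intensity (log2 change 1.07, SE 0.10, limma adjusted p = 0.00254). Probe set 1436734_at read 5.28, 5.17 and 5.03 in transgenic testes and 4.90, 4.63 and 4.66 in wild-type testes, and 1439731_at read 5.56, 5.60 and 5.68 in transgenic testes and 5.45, 5.45 and 5.28 in wild-type testes. Neither of these had overlapping groups, and neither passed (log2 changes 0.43 and 0.22, limma adjusted p = 0.246 and 0.72). The dimmest, 1446557_at, overlapped at a log2 change of 0.08. All 4 probe sets lay below the median brightness of all tested probe sets over the 6 arrays.

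**Figure D2:**
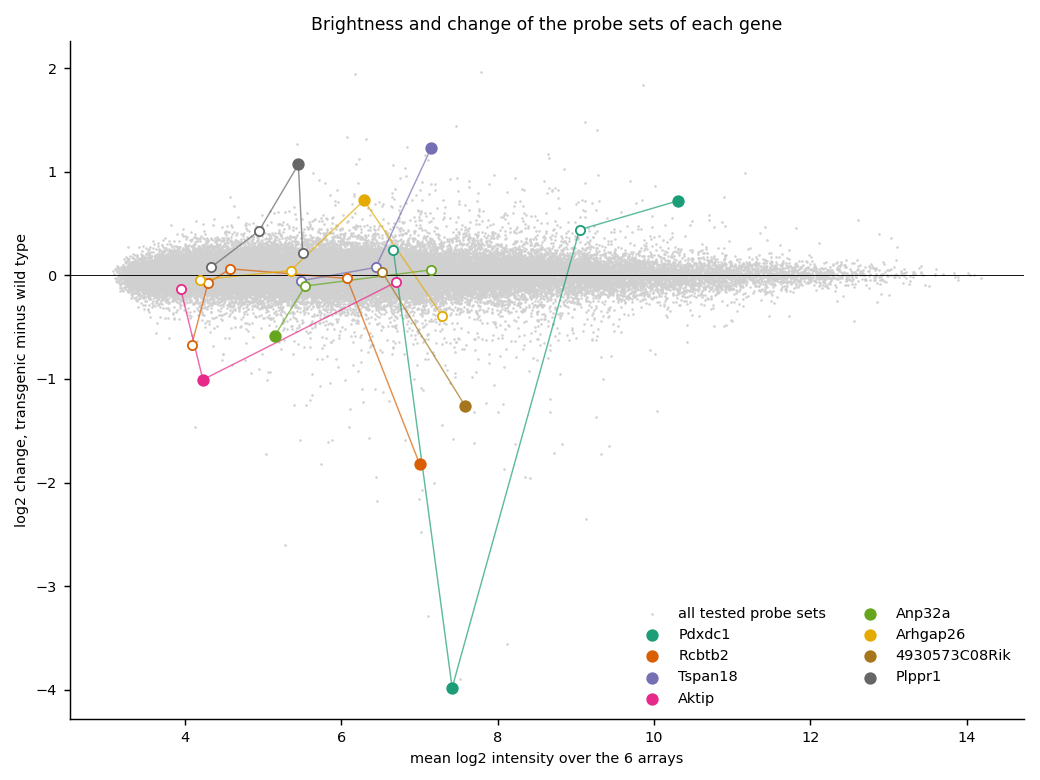
Mean log2 intensity over the 6 arrays (horizontal axis) against log2 change, transgenic minus wild type (vertical axis). Grey points are all tested probe sets, coloured lines join the probe sets of 1 gene, and filled circles mark those past an adjusted p of 0.05; the called probe sets span mean intensities from 4.23 to 10.31.

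Brightness over all arrays was not the criterion of the choice, but a mean over 6 arrays contains the change that was. The values that follow are descriptions. The 9 called probe sets had a median of 7.0, the 19 others of the same genes 5.50 and all tested probe sets 6.05. The called probe set of smallest p was the brightest of its gene in Rcbtb2, Tspan18 and 4930573C08Rik, the second in Aktip, Arhgap26 and Plppr1, and dimmer still in Pdxdc1 and Anp32a. So the called change did not sit at a fixed place in this order. The order itself shifts with the change: in wild type alone, 1419327_at of Pdxdc1 (9.41) was second, above 1436372_a_at (8.83). In transgenic testis alone, 1436733_at of Plppr1 (5.98) was the brightest of its gene, above 1439731_at (5.61). Within groups, the median SD of the 28 was 0.09 in transgenic and 0.15 in wild type, beside 0.11 and 0.13 over all tested probe sets. The highest minus the lowest brightness within a gene ran from 1.07 in 4930573C08Rik to 3.65 in Pdxdc1. The median was 1.81 over the 9010 genes with at least 2 probe sets of their own. These 8 genes lay between the 30.2nd and the 81.5th percentile. Such a range can grow with the number of probe sets, 2 to 5 in these genes, and the genes were not matched for it.

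The spread of change within a gene is what the genes were chosen for. Its place among all genes is given as a description, not matched for the number of probe sets. The highest minus the lowest log2 change was 4.70 in Pdxdc1, the widest of the 9010 genes. It was 1.89 in Rcbtb2, 1.30 in 4930573C08Rik, 1.28 in Tspan18, 1.12 in Arhgap26, 0.99 in Plppr1, 0.94 in Aktip and 0.64 in Anp32a. The median over all such genes was 0.16 and the 99th percentile 0.73, which 7 of the 8 genes exceeded, Anp32a being the exception. A single call among several probe sets was common in the table: of 72 genes with a call and at least 2 probe sets, 61 had exactly 1 called and 4 had every one called.

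**Figure D3:**
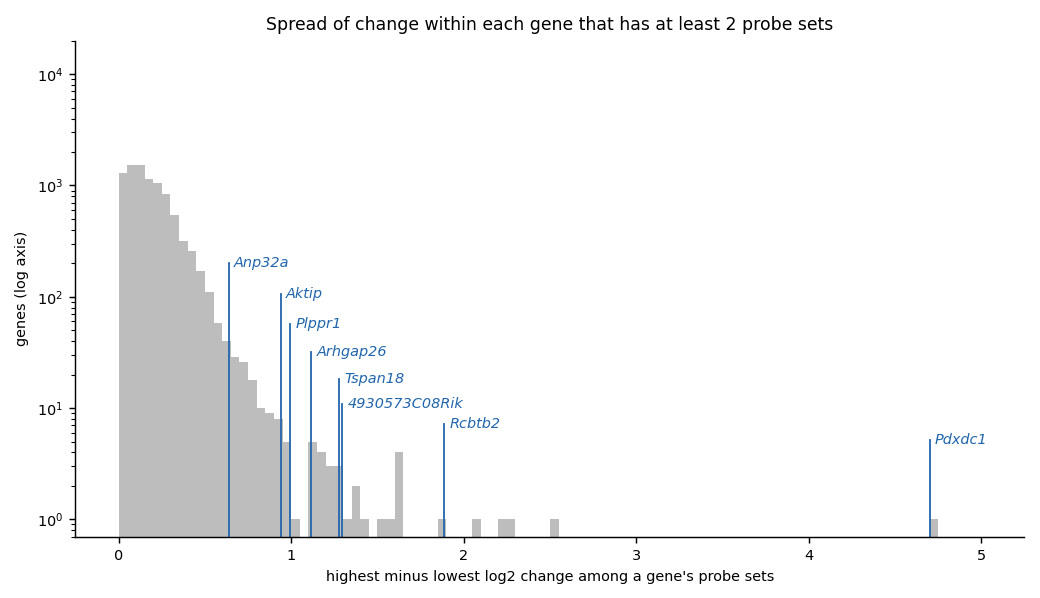
Number of genes (vertical, log axis) by the highest minus the lowest log2 change among a gene's probe sets (horizontal), for the 9010 genes with at least 2. Blue lines, of arbitrary height, mark the 8 genes, from Anp32a at 0.64 to Pdxdc1 at 4.70.

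In 4 of the genes the annotation ties a pair of probe sets to 1 source sequence. Over the 3223 such pairs in the table the changes within a pair differed by a median of 0.10, and by 0.35 at the 95th percentile. The pairs of 4930573C08Rik and Rcbtb2 differed by 1.30 and 1.15. Those of Anp32a and Pdxdc1 (1452705_at with 1428200_a_at) differed by 0.48 and 0.47. All 4 gaps of change lay above the 95th percentile. Each pair joins a called probe set to another that did not pass. The choice of the genes favours large gaps, so their place is given as a description. In brightness the pairs of Anp32a and 4930573C08Rik were 0.39 and 1.07 apart, and those of Rcbtb2 and Pdxdc1 2.92 and 3.65, beside a median of 0.96 over all such pairs.

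Profiles over the 6 arrays, each centred on its own mean, were compared by their root mean square difference in log2 units, with the probe set of smallest p of each gene as the lead. Only probe sets with 1 official symbol that is not clone-style were named, so unnamed probe sets can lie nearer. The distance from a lead to the other probe sets of its gene is large by the choice of the genes and is given as a description. For Pdxdc1 the nearest so named were Tmem267 (0.34) and Smc2os (0.74), while its own 1452705_at stood at 2.36, rank 44958 of the other 45036 probe sets. For Rcbtb2 they were the actin-bundling gene Fscn1 (0.16) and Qrich1 (0.22), with 1416390_at at 0.60 and rank 106. The leads of Tspan18 and Plppr1 were nearest to each other (0.09), and the next so named were Mthfd2l for Tspan18 (0.10) and Serpina5 for Plppr1 (0.11). The lead of Arhgap26 was nearest to Pdxdc1 1452705_at (0.05) and Mgat4d (0.05). For Aktip the nearest so named were Fam126b (0.15) and Cd3d (0.17), for Anp32a Mex3c and Cap2 (0.06 each) and for 4930573C08Rik the histidine ammonia-lyase gene Hal and the NMDA receptor gene Grin2b (0.08 each). With 6 arrays in 2 groups, a small difference mainly needs a like direction and size of the genotype difference.

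Relatives and partners of 7 of the genes were read from the same fit, and none of their 152 probe sets, for 68 genes, passed (limma). An unadjusted p under 0.05 was reached by 8 of them, or 5.26%, beside 6.69% of all tested probe sets. Their changes ran from -0.29 to 0.48. Hook2, a partner of Aktip, read 9.99 ± 0.13 in transgenic and 9.75 ± 0.07 in wild-type testes (log2 change 0.24, limma adjusted p = 0.69). The smallest p of the pyridoxal-dependent decarboxylases was that of Hdc, the histamine-forming enzyme (log2 change 0.23, limma adjusted p = 0.677), that of the RCC1-repeat genes was Rccd1 (-0.29, 0.514) and that of 24 other tetraspanins Tspan11 (0.31, 0.63). Among 7 genes around Anp32a it was Ppp2cb, a catalytic subunit of PP2A (log2 change 0.14, limma adjusted p = 0.907). For Plppr1, among 7 lipid phosphatase and lipid phosphatase-related genes, it was Plpp3 (log2 change 0.21, limma adjusted p = 0.861).

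The nearest measured genes on the chromosome, 3 on each side of every member in RefSeq order, were read as well, a set chosen after the values of the 8 genes were seen. None of the 92 probe sets of these 48 genes passed (limma), and 7 (7.61%) had an unadjusted p under 0.05. Their changes ran from -0.31 to 0.58, the highest being Rbl2 beside Aktip (limma adjusted p = 0.306).

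A measure of RNA integrity moved with the genotype. The Gapdh control probe sets at the 3' end exceeded those at the 5' end by 0.21, 0.26 and 0.33 in transgenic testes and 0.16, 0.06 and 0.11 in wild-type testes, with no overlap. The same difference for beta-actin was 0.53, 0.47 and 0.49 in transgenic testes and 0.50, 0.41 and 0.50 in wild-type testes, with overlap. With the Gapdh difference as a covariate only 1419327_at of Pdxdc1 passed among the 28 (log2 change -3.68, limma adjusted p = 0.015). The change of the lead of Rcbtb2 became -0.93 (0.215), and the 7 other called probe sets kept their direction with sizes from 0.49 to 1.38. Since the Gapdh difference separates the groups, its part and that of the genotype cannot be told apart.

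**Figure D4:**
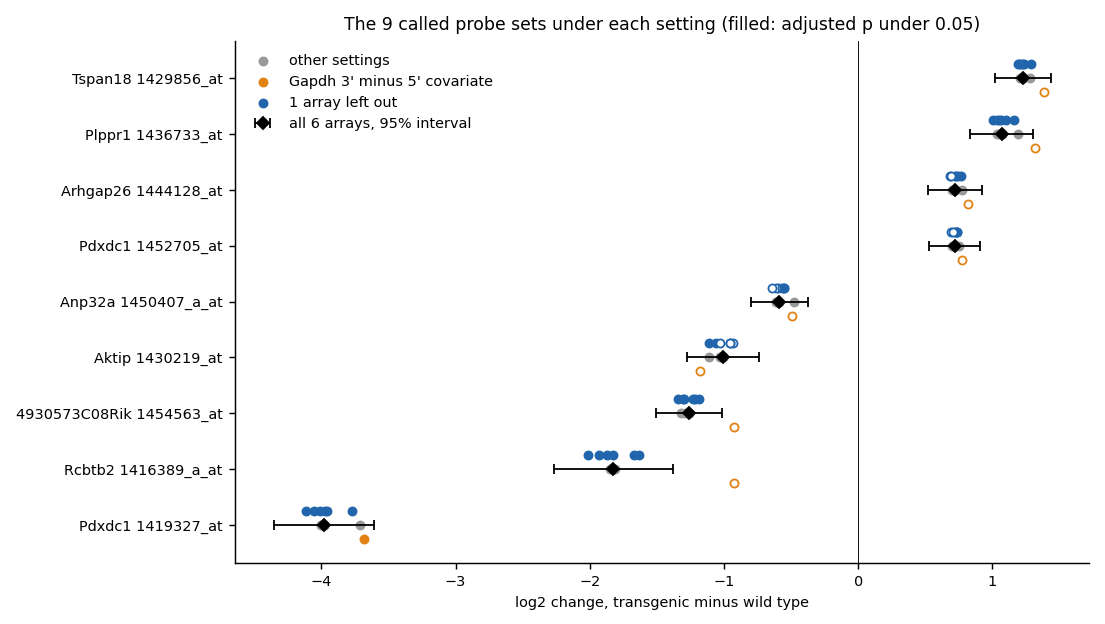
Log2 change, transgenic minus wild type (horizontal axis), of the 9 called probe sets. Diamonds are the fit of all 6 arrays with its 95% interval, blue circles leave out 1 array, the orange circle adds the Gapdh covariate and grey circles are the other settings; filled circles are past an adjusted p of 0.05, and no point crosses 0.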

How the data were processed

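Testis RNA of 3 DREAM transgenic and 3 wild-type samples was measured on 1 array each. The authors deposited log2 intensities per probe set with 2 decimals, made with RMA and the affy package, per the submitters' processing notes; RMA equalises the arrays, so a shift of all transcripts is not visible, and it gives no detection call. Versions, parameters and a genome build are not given in the sources used here. Precision is limited by the number of arrays.

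All 45037 probe sets left after 64 controls went into 1 linear model per probe set (R 4.3.3, limma 3.58.1, eBayes; two-sided; transgenic minus wild type; no block, no filter on dim values), with Benjamini-Hochberg adjustment and a threshold of 0.05. Genes come from the platform annotation: 34945 probe sets carry 1 gene, of which 34741 matched RefSeq (GRCm38.p6) by gene ID. 932 carry several genes and 9160 none here. Every probe set of the 8 genes is reported. Of other genes, the text names for each list of relatives those past the threshold or else the one of smallest p, and for each lead the 2 nearest profiles among probe sets of other genes with 1 official symbol that is not clone-style; Rbl2 was named after its values were seen. The gene this rule names among the partners of Arhgap26 is not reported here. The genes, lists and alternatives were chosen with earlier results of these data known. Promoter windows are from RefSeq, for 5 of the 8 genes. The fit was tested on artificial data with known changes.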

Additional observations from a re-analysis of the deposited data

How the results depend on the processing

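No called probe set of the 8 genes changed sign in 135 recomputed values over 16 alternatives, and 111 of these stayed past the threshold. Of the 24 that did not, 8 came from the Gapdh covariate, 15 from leaving out 1 array and 1 from the replicate block. The 200 calls of the whole table became 309 with a variance trend, 117 with the replicate block, 18 with the Gapdh covariate and 317 at an adjusted p under 0.1, and ran from 70 to 429 when 1 array was left out. Array weights gave 4160 calls, of which 57.8% were higher against 38.5% before, with a weight of 19.1 on wild type replicate 3 and 0.237 to 0.812 on the others, from a fit that did not converge. The 9 calls among the 28 probe sets became 15 with array weights, 1 with the Gapdh covariate and 5 without the dimmest 60% of probe sets, where only 10 of the 28 were tested, and ran from 5 to 10 when 1 array was left out. Deviations of same-numbered arrays from their group means correlated at -0.32, -0.07 and -0.01, so no pairing by replicate number was seen. Deviations from a mean of 3 arrays are tied to one another, so these values cannot exclude a pairing. The replicate block kept 8 of the 9 calls. Without wild type replicate 2 the table had 239 higher and 190 lower calls. The data give no detection call, which limits what dim readings show. Causes were not tested.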
